A study of Mus musculus with 8 samples.

Results

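The comparison covers CD80high medullary thymic epithelial cells (mTECs) of mice that lack the kinase gene Hipk2 in thymic epithelium, set against the same cells of controls. Its members are the 2 knockout and the 2 control CD80high samples, taken by genotype and sorted population from the sample titles, 4 of the 8 bead arrays in the series. All 4 hold total RNA of primary mouse mTECs sorted for a high surface level of CD80. The knockout is described in the labels as restricted to thymic epithelial cells, and the controls are wild-type animals from the matings. The labels read here give no name for the driver of the deletion, no deleted exons and no age, and they do not say how many animals went into a sample. The 4 CD80low arrays, 2 of each genotype, were used for a second estimate of the spread and for the comparison between subsets.

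mTECs display antigens of peripheral tissues to developing T cells, so that strongly self-reactive cells are deleted or diverted into regulatory T cells. CD80high mTECs are the mature fraction, in which the regulators Aire and Fezf2 switch on many tissue-restricted genes, and single mTECs can take on programmes that resemble tuft cells, muscle, keratinocytes or intestinal cells. HIPK2, a nuclear serine/threonine kinase, phosphorylates p53 and a range of corepressors and other transcriptional regulators.

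Levels below are log2 of the background-corrected, quantile-normalised intensity of a probe, a difference is knockout minus control on that scale, and its standard error (SE) comes from limma with n = 2 arrays per genotype. Levels of different genes come from different probes and are not set against each other. The test covered 14722 genes whose probe lay above background in both arrays of at least 1 of the 4 groups, out of 21903 genes with a named probe. On the CD80high arrays, 22858 to 24398 of 46089 probes (49.6% to 52.9%) were above background. The sort was visible in the data: Cd80 read 9.90 to 10.76 on these 4 arrays and 5.10 to 5.82 on the CD80low arrays. With 2 arrays against 2, an exact permutation test of a single gene cannot give a two-sided p under 0.333, so calls rest on limma, which borrows the spread across genes. Nothing states that the 2 samples of a group come from separate animals beyond the words biological replicate, and the p-values measure the spread between these samples.

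In CD80high mTECs that lack Hipk2 a single transporter gene, Slc13a2, rose by a large factor, and no other gene passed the test. The median absolute difference over the 14722 genes was 0.12, 295 genes differed by more than 0.5 (104 higher and 191 lower), and 5 by more than 1. By limma on the 4 CD80high arrays, 1 gene was called higher (0.00679% of the genes tested) and 0 were called lower at an adjusted p under 0.05. With the variance taken from all 8 arrays the counts were again 1 (0.00679%) and 0. An unadjusted p under 0.05 was reached by 432 genes in the first fit, 156 higher (1.06%) and 276 lower (1.87%), and 233 in the second. Both knockout arrays stood above both control arrays for 1948 genes (13.2%) and below both for 2233 genes (15.2%). The standard error of a difference had a median of 0.20 from the 4 arrays and 0.22 from all 8, because the replicates lay closer together in CD80high than in CD80low cells.

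**Figure D1:**
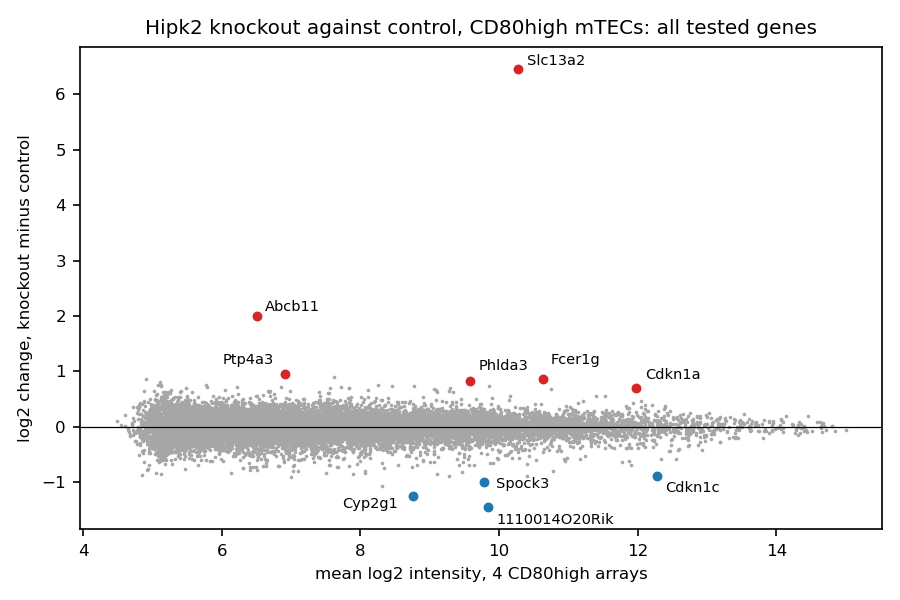
Difference in log2 intensity (knockout minus control, vertical axis) against the mean log2 intensity of the 4 CD80high arrays (horizontal axis) for the 14722 genes tested, with 1 point per gene. Slc13a2 lies alone at 6.46, Abcb11 follows at 2.01, and 1110014O20Rik and Cyp2g1 are the lowest points.

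The gene that rose is Slc13a2, a sodium-coupled transporter of citrate, succinate and other dicarboxylates known from the brush border of kidney and intestine. The control arrays read 7.03 and 7.07, and those of the knockouts 13.47 and 13.55. Both knockout arrays lay far above both control arrays, and the arrays of a genotype were almost equal. The difference was 6.46 (SE 0.184, 95% confidence interval 6.05 to 6.87), an 88.1-fold rise, with adjusted p = 6.96e-08 by limma on the 4 arrays and 7.58e-07 on all 8. The size rests in part on the background step, since the values as deposited gave 5.85, or 57.6-fold. In the controls the probe was above background on both arrays, so the fold is a ratio of measured levels.

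The window of 250 bases before and 50 after the annotated start of Slc13a2 (RefSeq, GRCm38.p6, chr11:78422185-78422484, minus strand, printed in the direction of the gene) is shown because this was the gene called. Capitals mark the only TATAAA in it, read on the opposite strand, whose first letter as printed lies 29 bases before the start. Variants of this motif were not searched. In the direction of the gene the capitals run on into taag, so the stretch reads TTTATATAAG.
Slc13a2: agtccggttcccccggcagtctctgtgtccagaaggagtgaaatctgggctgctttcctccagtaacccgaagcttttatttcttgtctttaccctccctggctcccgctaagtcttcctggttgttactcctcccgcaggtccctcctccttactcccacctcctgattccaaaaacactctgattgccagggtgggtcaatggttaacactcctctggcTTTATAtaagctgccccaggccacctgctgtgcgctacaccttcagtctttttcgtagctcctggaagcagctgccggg
The motif TATAAA occurs on either strand in 4473 of 32851 promoter windows of this length (13.6%). A p53 half-site was not found in these letters. Both are descriptions of the window, not of factor binding.

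Genes beside Slc13a2 on chromosome 11 did not pass the test. Foxn1, the transcription factor that defines thymic epithelium, is the next gene on one side; it read 6.51 and 6.51 in controls and 6.25 and 6.87 in knockouts, so the control arrays fell between the knockout arrays (difference 0.05, 95% confidence interval -0.46 to 0.56). Unc119, a lipid-binding chaperone gene beyond Foxn1, read 5.48 and 5.87 against 5.71 and 5.74, a difference of 0.05. Slc46a1, the proton-coupled folate transporter on the other side, read 6.22 and 6.06 against 5.99 and 5.64. Its knockout arrays were both lower, at -0.32 (SE 0.202). Sarm1, the next gene after it, was not above background and was not tested. The labels do not name the construct behind the deletion, and whether it carries sequence of this region was not tested. Of the 5 members of the Slc13 transporter family, 3 were tested: the sulfate transporter Slc13a4 differed by -0.37 (SE 0.208) and the dicarboxylate transporter Slc13a3 by -0.02 (SE 0.188).

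The targeted gene does not check the labels here. The brighter Hipk2 probe read 7.43 and 7.31 in controls and 7.98 and 7.25 in knockouts (0.24, SE 0.245), with overlapping groups. A second, dimmer probe read 5.85 and 5.71 against 5.59 and 5.60, lower in both knockout arrays by 0.19. Where either probe lies relative to the deleted part is not known, so neither can show the presence or loss of the intact transcript. Of the paralogous kinases, Hipk1 differed by -0.06 and Hipk3 by 0.01.

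Among the genes that were higher without passing the test, the next after Slc13a2 was Abcb11, the bile salt export pump of hepatocytes. It read 5.55 and 5.45 in controls and 7.11 and 7.90 in knockouts. All 4 arrays were above background, and the knockout arrays stood clear of the controls but well apart from each other. The difference was 2.01 (SE 0.252, 4.02-fold, adjusted p = 0.0764 by limma on the 4 arrays, 0.292 on all 8). It was 1.15 (2.21-fold) with the values as deposited. The adjusted p ran from 0.000129 to 1 over the alternatives and passed in 6 of 15, among them each that left out 1 of the 4 arrays (0.000129 to 0.0335). The other 12 tested genes of bile acid and organic anion transport lay between -0.30 and 0.18.

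Of the remaining 10 genes with the smallest p on the higher side, each with adjusted p = 1, 3 are on the list of p53 targets described below. The protein tyrosine phosphatase Ptp4a3 read 6.47 and 6.40 in controls and 7.51 and 7.26 in knockouts (0.95, SE 0.192). Fcer1g, the signalling gamma chain of Fc receptors, read 10.12 and 10.28 against 11.21 and 10.92 (0.86, SE 0.197). Mcam, the adhesion molecule CD146, read 5.36 and 5.50 against 6.09 and 6.21 (0.72, SE 0.187). The other tested Mcam probes gave 0.25 and 0.12, the latter with overlapping arrays. In each of these genes the control arrays of the brightest probe lay close together and below both knockout arrays. D630023F18Rik differed by 0.90 and 1110018J23Rik by 0.76. Cacng4, a regulatory subunit of AMPA receptors and calcium channels, and 2010106E10Rik were at background in both controls, so that the knockouts were at least 1.19-fold and at least 1.15-fold higher.

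On the lower side the 12 genes with the smallest p did not pass the test either. The first, 1110014O20Rik, read 10.49 and 10.64 in controls and 8.87 and 9.34 in knockouts (-1.46, SE 0.213, adjusted p = 0.194 by limma). Cyp2g1, a cytochrome P450 of the olfactory mucosa, read 9.40 and 9.37 against 7.97 and 8.29 (-1.25, SE 0.196, adjusted p = 0.258, and 0.0331 to 1 over the alternatives). Both genes were far above background on all 4 arrays, with the groups apart. The adjusted p of 1110014O20Rik was 0.0237 without control replicate 1 and 0.0325 without knockout replicate 2, and ran from 0.0102 to 1 over the alternatives. The other 10 had adjusted p = 1. Spock3, an extracellular proteoglycan of brain, read 10.32 and 10.23 against 9.14 and 9.43 (-0.99). Clca3b, of the calcium-activated chloride channel regulator family, read 9.04 and 8.65 against 7.59 and 7.95 (-1.08). Prap1, a secreted protein of intestinal epithelium, read 10.68 and 11.04 against 10.09 and 9.83 (-0.90). The knockout arrays of all 3 genes lay below both control arrays.

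Lrmp, a membrane protein of the endoplasmic reticulum, differed by -0.86 (SE 0.194) and Ajap1, a protein of adherens junctions, by -0.83 (SE 0.185). The kallikrein Klk1b16, which has near-identical relatives whose transcripts its probe may also catch, differed by -0.90. Igl-V1, a lambda light chain variable segment, read 9.73 and 9.72 in controls and 8.92 and 8.74 in knockouts, and ranged from 6.39 to 13.38 over the CD80low arrays. Spag6 and Spata32, genes of sperm, were at background in both knockouts and at least 1.21-fold and at least 1.02-fold lower.

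**Figure D2:**
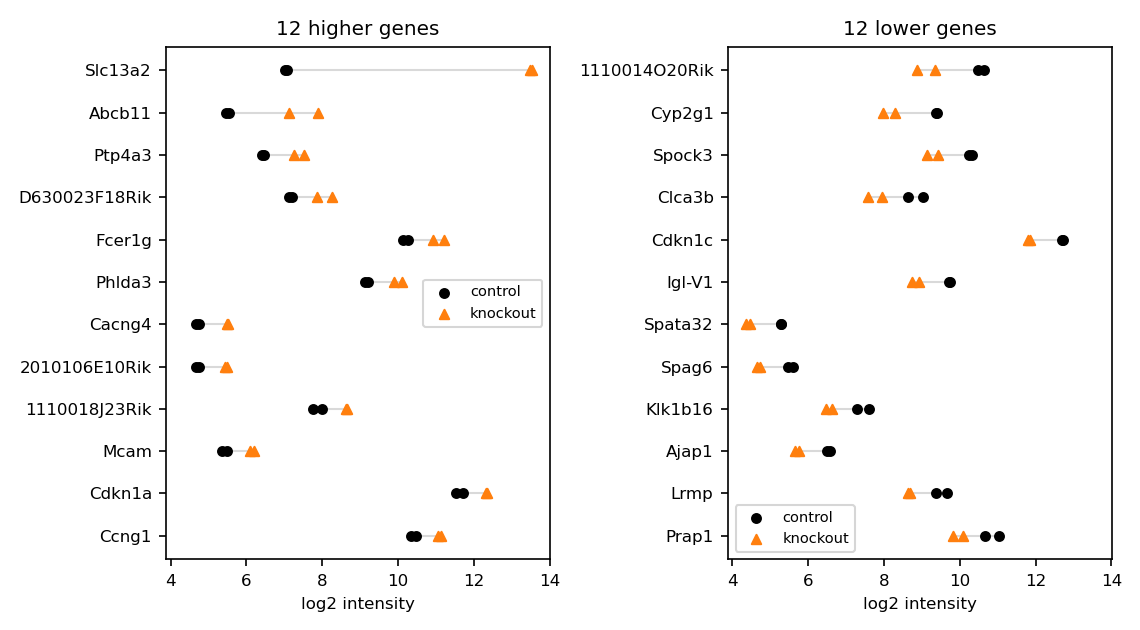
Log2 intensity on each CD80high array (horizontal axis) for the 12 higher genes (left) and 12 lower genes (right) with the smallest p among genes whose arrays do not overlap, circles for controls and triangles for knockouts. Slc13a2 is the pair at 7.03 and 7.07 against 13.47 and 13.55, and every other gene shows a smaller gap between the genotypes.

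Targets of p53 were mostly higher in the knockouts, though none passed the test. Of 29 listed targets, 26 were tested, and both knockout arrays exceeded both controls in 11 and fell below them in 0 (over all genes 13.2% and 15.2%). The median difference was 0.14, against 0.00 over all genes tested, and 6 had an unadjusted p under 0.05, all higher (over all genes 1.06% higher and 1.87% lower). By limma 0 of the 26 were called in either fit. The list and this direction were known from earlier work on these arrays, so the counts are a description.

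Phlda3, an inhibitor of AKT signalling that p53 induces, read 9.21 and 9.13 in controls and 9.89 and 10.11 in knockouts (0.83, SE 0.190). Cdkn1a, the cell cycle inhibitor p21, read 11.53 and 11.73 against 12.35 and 12.32 (0.70, SE 0.188). In both genes the replicates were close and the genotypes did not overlap. The 3 tested Cdkn1a probes gave 0.70, 0.75 and 0.77. Ccng1, cyclin G1, read 10.48 and 10.35 against 11.05 and 11.15 (0.69, SE 0.186). The other tested Ccng1 probes gave smaller differences, 0.38 and 0.50. Zmat3, an RNA-binding protein that p53 induces, read 8.73 and 8.78 against 9.20 and 9.62 (0.66, SE 0.206). The other 2 targets with an unadjusted p under 0.05 were Gtse1, a G2 and S phase protein that restrains p53, at 0.51 and the DNA polymerase Polk at 0.43.

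Smaller differences with non-overlapping arrays were seen for Sfn (stratifin, 0.26), Plk2 (0.20), Trp53inp1 (0.18) and the repair gene Xpc (0.17). Tigar was at background in controls and at least 1.17-fold higher. Several of the best known p53 targets overlapped between the genotypes. Mdm2, the ubiquitin ligase that limits p53, read 12.88 and 13.10 against 12.73 and 13.08 (-0.08). Of the apoptotic targets, Bbc3 (PUMA) differed by 0.10, Pmaip1 (NOXA) by -0.16 and the death receptor Fas by 0.00, all with overlapping arrays. The members of this list are given here whatever their rank, so several were named with their values known.

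The promoter windows of Cdkn1a and Ccng1 are shown because, of the 3 p53 targets with the smallest p whose windows were searched, these hold a p53 half-site (both strands searched, RefSeq, GRCm38.p6, 250 bases before to 50 after the start). Capitals mark the half-sites. In Cdkn1a (chr17:29090729-29091028, plus strand) they begin 73 and 51 bases before the more upstream of its annotated starts. In Ccng1 (chr11:40755237-40755536, minus strand, printed in the direction of the gene) the half-site begins 185 bases before the start.
Cdkn1a: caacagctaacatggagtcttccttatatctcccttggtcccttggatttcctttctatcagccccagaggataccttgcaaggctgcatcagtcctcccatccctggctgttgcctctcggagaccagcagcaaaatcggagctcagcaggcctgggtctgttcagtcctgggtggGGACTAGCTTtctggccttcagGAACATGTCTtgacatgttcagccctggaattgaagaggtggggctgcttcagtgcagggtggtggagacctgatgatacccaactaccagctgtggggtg
Ccng1: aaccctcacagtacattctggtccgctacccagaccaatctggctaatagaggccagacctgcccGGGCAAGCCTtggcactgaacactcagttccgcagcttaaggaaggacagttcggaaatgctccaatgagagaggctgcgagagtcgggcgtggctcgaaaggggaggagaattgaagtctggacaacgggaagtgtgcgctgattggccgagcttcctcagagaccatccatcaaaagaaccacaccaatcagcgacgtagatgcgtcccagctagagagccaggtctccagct
A half-site occurs in 2745 of 32851 windows (8.36%). The window of a second annotated Cdkn1a start, further downstream (chr17:29093519-29093818, plus strand), and that of Phlda3 hold 0. The array probes do not tell which start was used.

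Cyclin-dependent kinase inhibitors did not move as a group. Cdkn1c, the imprinted inhibitor p57, went the other way from Cdkn1a: it read 12.70 and 12.73 in controls and 11.81 and 11.85 in knockouts (-0.89, SE 0.183). Its replicates were nearly equal and the genotypes well apart. The remaining 6 inhibitors, which include p27 (Cdkn1b, -0.10) and p16 and p19 (Cdkn2a, -0.25), overlapped between genotypes. Cell cycle genes were near 0, with a median of -0.03 over 16 tested. Of these, 0 had non-overlapping arrays on the higher and 1 on the lower side (all genes 13.2% and 15.2%). Mki67 differed by -0.22 and Top2a by 0.22.

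Cdkn1c also belongs to the imprinted growth genes, of which 11 of 14 were tested. Their median was -0.16 (all genes 0.00), 7 had both knockout arrays below both controls and 0 above (all genes 15.2% and 13.2%), and 2 had an unadjusted p under 0.05, both lower (all genes 1.87%). With 1 array left out the median lay between -0.31 and -0.24. H19, a noncoding RNA, read 9.09 and 9.34 in controls and 8.61 and 8.59 in knockouts (-0.62, SE 0.191). Igf2, the growth factor of the same imprinted locus, read 10.75 and 10.94 against 10.52 and 10.38 (-0.40, SE 0.190). Both were lower in both knockout arrays. Mest differed by -0.33 and Ndn by -0.32. By limma 0 of these genes were called.

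Markers of tuft cells, chemosensory cells that use taste-type signalling and make lipid mediators, were lower in most cases but not in all. Of 21 tested genes, 10 had both knockout arrays below both controls and 2 had both above, against 15.2% and 13.2% of all genes. The median was -0.34, and 10 had an unadjusted p under 0.05, all lower, against 1.87% of all genes. The mean level over the list was 7.52 and 7.40 on the control arrays and 7.12 and 7.11 on the knockout arrays. None was called by limma over all genes. In sorted cells measured in bulk, fewer tuft-like cells and less RNA of these genes per cell cannot be told apart.

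The kinase Bmx read 7.00 and 6.80 in controls and 6.04 and 6.21 in knockouts (-0.78, SE 0.192). Alox5ap, the activator of leukotriene synthesis, read 8.50 and 8.14 against 7.77 and 7.18 (-0.85, SE 0.238). The prostaglandin D synthase Hpgds read 6.81 and 6.91 against 5.92 and 6.34 (-0.73, SE 0.206). In each of the 3 the knockout arrays lay below both controls. The taste G protein Gnat3 differed by -0.70 and the taste channel Trpm5 by -0.72, also without overlap, the latter with a range from -1.08 to -0.35 when single arrays were left out. A dimmer Gnat3 probe differed by -0.26. The kinase Dclk1, a common tuft marker, stood on the other side: 7.02 and 6.81 against 7.24 and 7.46, a difference of 0.43 (SE 0.195). Pou2f3, the transcription factor that tuft cells depend on, was at background in both genotypes.

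**Figure D3:**
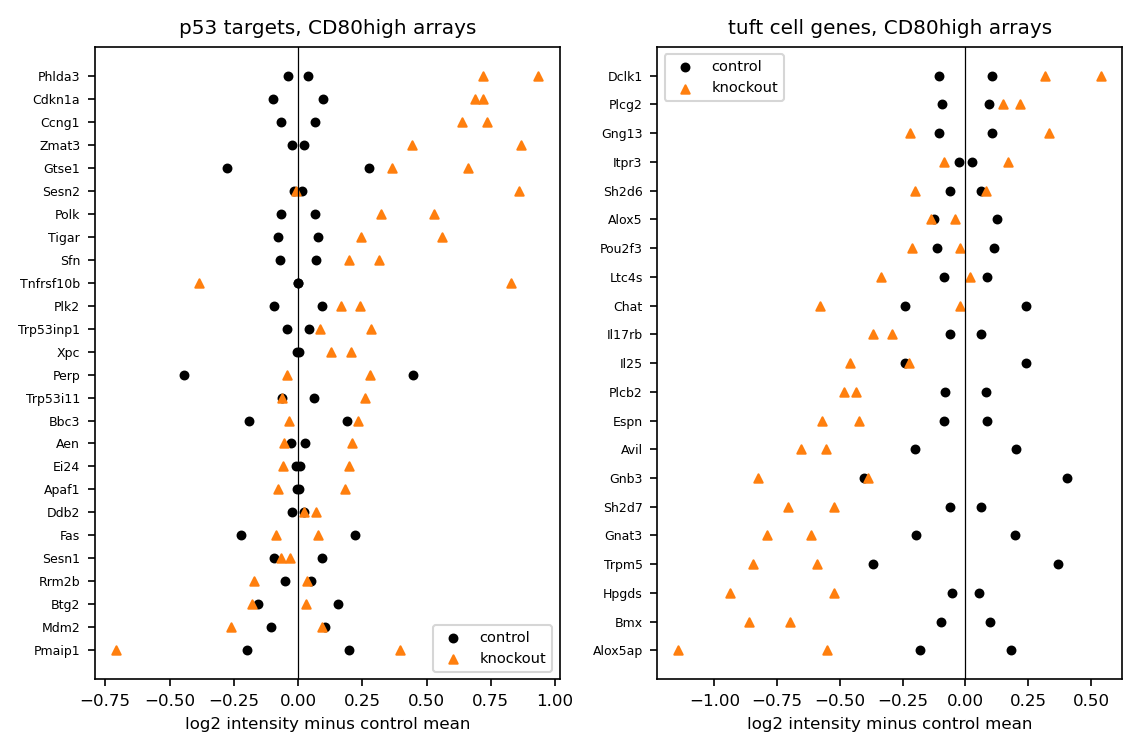
Log2 intensity on each of the 4 CD80high arrays minus the mean of the 2 control arrays (horizontal axis) for each tested p53 target (left) and tuft marker (right), circles for controls and triangles for knockouts, ordered by the difference. Mean differences run from -0.16 (Pmaip1) to 0.83 (Phlda3) among the p53 targets and from -0.85 (Alox5ap) to 0.43 (Dclk1) among the tuft markers.

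In the 5 lists of peripheral tissue genes set out below, which mature mTECs display, genes were lower more often than higher. Other tissue lists leaned the same way. The difference was positive for 4 and negative for 15 neuroendocrine genes (median -0.15, 5 lower and 2 higher without overlap). For secretory gland genes these counts were 5 and 12 (median -0.18, 3 lower, 0 higher). For kidney and intestinal solute carriers they were 3 and 11 (median -0.06, 3 lower, 0 higher). Testis genes gave 4 and 5 (median -0.14, 3 lower, 0 higher). Ciliated genes were even, at 6 and 6 (median -0.08, 2 lower, 3 higher). Over all genes tested, 7304 differences were positive and 7418 negative. The intestinal list had a median of -0.37 over 18 tested genes, with 10 lower and 0 higher without overlap. For the cornified keratinocyte list the median was -0.30 over 19, with 10 lower and 1 higher, and for the liver and acute phase list -0.28 over 22, with 14 lower and 1 higher. Pancreas genes had a median of -0.24 over 17 (5 lower, 0 higher) and skeletal muscle genes -0.16 over 18 (9 lower, 0 higher). Over all genes tested the median was 0.00, with 15.2% lower and 13.2% higher. Of these 5 medians, that of pancreas genes moved most when single arrays were left out, to -0.12 without knockout replicate 2 and -0.47 without control replicate 2, and the intestinal median lay between -0.51 and -0.23. The muscle median ranged from -0.26 to -0.10. Unadjusted p-values under 0.05, all on the lower side (1.87% of all genes), were found for 6 intestinal, 5 cornified, 6 liver, 1 pancreas and 1 muscle gene. By limma 0 genes of these 5 lists were called in either fit, and some genes sit in more than 1 list.

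In the intestinal group the tetraspanin Tspan8 read 9.09 and 9.24 in controls and 8.41 and 8.53 in knockouts (-0.69, SE 0.188). The antimicrobial lectin Reg3b read 11.18 and 11.17 against 10.67 and 10.10 (-0.79, SE 0.221). The lectin Zg16 of goblet and acinar cells read 10.46 and 9.95 against 9.82 and 9.27 (-0.66, SE 0.246). Reg3b showed a tighter pair of controls than of knockouts, and for Zg16 the gap between replicates was nearly as wide as that between genotypes. The brush border protein Vil1 differed by -0.53 (-0.86 to -0.21 with 1 array left out) and the mucin Muc2 by -0.32, both chosen after their values were seen. The other 8 intestinal genes overlapped between the genotypes.

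Among keratinocyte genes, the proteases Klk5 and Klk7, which act in shedding of the skin, differed by -0.74 and -0.49. Keratin Krt10 of suprabasal layers read 12.58 and 13.11 against 12.08 and 12.45 (-0.58, SE 0.232), and the barrier protein Flg read 10.39 and 10.77 against 9.76 and 10.26 (-0.57, SE 0.229). For Krt10 and Flg each knockout array lay below both controls, with the replicates of either genotype well apart. Among liver genes, haptoglobin Hp read 8.99 and 8.79 against 8.38 and 8.03 (-0.69, SE 0.203). Serum amyloid Saa1 read 12.02 and 12.47 against 11.37 and 11.75 (-0.69, SE 0.224), and its close paralog Saa2 differed by -0.62. A dimmer Saa1 probe differed by -0.345, with overlapping arrays. Hamp2, also on the liver list, differed by -0.57. In the pancreas list, Reg1 differed by -0.41 and the lipase relative Pnliprp2 by -0.42. A dimmer Pnliprp2 probe differed by -0.04, with overlapping arrays.

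The known regulators of these antigens did not pass the test. Aire read 12.77 and 12.75 in controls and 12.75 and 12.88 in knockouts, overlapping, with a difference of 0.06 (SE 0.185, 95% confidence interval -0.36 to 0.47). Fezf2 read 13.80 and 14.01 against 13.62 and 13.79 (-0.20, SE 0.192, interval -0.62 to 0.23), both knockouts being just below both controls. A dimmer Fezf2 probe differed by -0.07, with overlapping arrays. Genes listed as dependent on Aire had a median of -0.14 over 24 tested, with 9 lower and 1 higher without overlap, where all genes gave 15.2% and 13.2%. Dependent on Fezf2 were 9, with a median of -0.19, 2 lower and 0 higher, and 9 Aire-independent antigens had a median of 0.00, 0 lower and 1 higher. Leaving out single arrays moved the lower medians: the Fezf2-dependent one was 0.002 without control replicate 2 and -0.48 without control replicate 1, and the Aire-dependent one was -0.04 without knockout replicate 2 and -0.25 without knockout replicate 1. Insulin Ins2, an Aire-dependent antigen, read 8.53 and 8.53 in controls and 8.49 and 7.97 in knockouts (-0.30, SE 0.216, and -0.04 without knockout replicate 2). Gad1, an Aire-independent antigen of islets and brain, differed by -0.11 (SE 0.190), and 1 of its 3 probes had the opposite sign.

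Some of these lists did not weigh equally on both knockout arrays. When each knockout array was set against the control of its own replicate number, the median of the Aire-dependent list was -0.04 for replicate 1 and -0.33 for replicate 2. For liver genes they were -0.14 and -0.38, and for Fezf2-dependent genes -0.07 and -0.28. The corresponding medians were -0.38 and -0.38 for intestinal, -0.40 and -0.31 for tuft and 0.16 and 0.17 for p53 target genes. The intestinal, tuft and p53 lists were thus alike in both pairings, and the Aire-dependent, Fezf2-dependent and liver lists were lower in the second. The labels do not say that equal numbers share an animal or a sort.

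**Figure D4:**
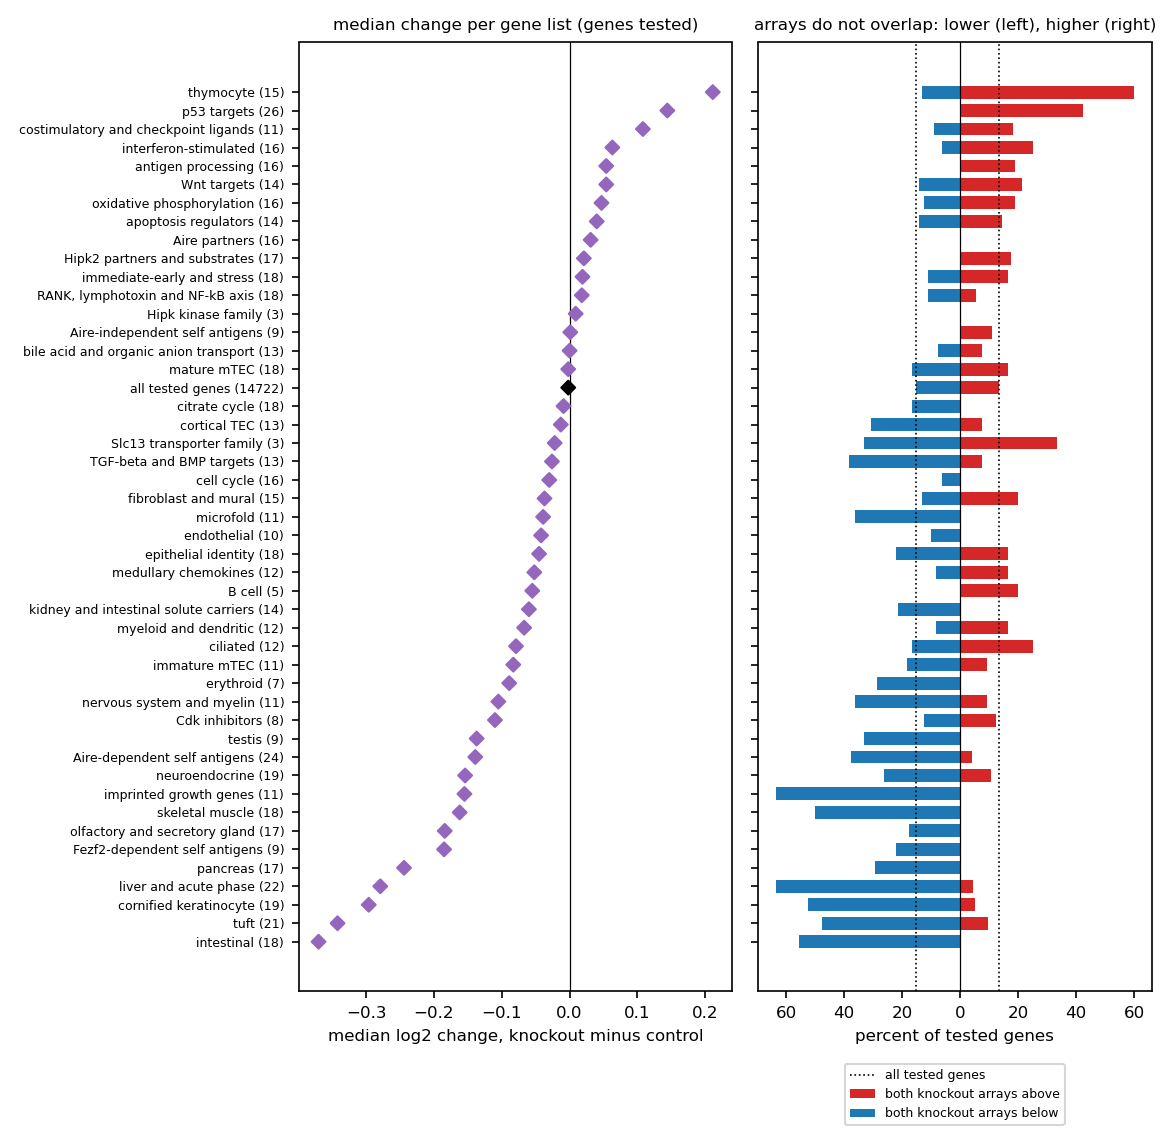
Left, the median difference in log2 intensity (knockout minus control) of each gene list, with the number of genes tested in brackets; right, the percent of those genes whose knockout arrays both lie below (left of 0) or above (right of 0) both controls, with dotted lines for all tested genes at 15.2% and 13.2%. The tuft, intestinal, cornified and liver lists have medians of -0.28 or lower, thymocyte genes 0.21, p53 targets 0.14 and all tested genes 0.00.

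No gene of the machinery with which mature mTECs present antigen passed the test. The 18 mature mTEC genes had a median of 0.00, with 3 higher and 3 lower without overlap (all genes 13.2% and 15.2%). The class II genes H2-Aa, H2-Ab1 and Cd74 differed by -0.06, -0.07 and -0.06, each with overlapping arrays, and the 95% confidence interval for H2-Aa was -0.50 to 0.38. Their transactivator Ciita read 10.35 and 10.31 in controls and 10.60 and 10.56 in knockouts (0.25, SE 0.183), and the costimulatory ligand Cd86 read 9.65 and 9.98 against 10.09 and 10.20 (0.33, SE 0.198). Both had non-overlapping arrays and did not pass. Cd80, used for the sort, read 10.04 and 10.38 against 9.90 and 10.76 (0.12, SE 0.273). The maturation marker Cd83 differed by -0.37. Genes of the RANK, lymphotoxin and NF-kB axis, through which mTECs mature, had a median of 0.02 over 18 tested, 1 higher and 2 lower without overlap.

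Of 12 medullary chemokines, Ccl17, a ligand of CCR4 that draws thymocytes into the medulla, read 8.30 and 8.52 in controls and 9.37 and 8.91 in knockouts (0.73, SE 0.214, adjusted p = 1 by limma). The interferon-induced Cxcl9 read 12.79 and 13.02 against 12.50 and 12.59 (-0.36, SE 0.191). Both genes had non-overlapping arrays, in opposite directions. Ccl21a, a ligand of CCR7, differed by -0.25 with overlap. The list median was -0.05 and its mean 0.01.

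Transcripts of proteins that HIPK2 is known to bind or phosphorylate lay close to 0. Of 17 tested genes, 3 were higher and 0 lower without overlap, a share near the 13.2% of all genes on the higher side, with a median of 0.02. The ubiquitin ligase Siah2, which targets HIPK2 for degradation, read 6.19 and 6.29 in controls and 6.82 and 6.75 in knockouts (0.55, SE 0.185), and the other 16 lay between -0.15 and 0.39. Wnt targets, TGF-beta and BMP targets and apoptosis regulators had medians of 0.05, -0.03 and 0.04, and the means of the latter pair had the other sign (0.009 and -0.005). The citrate cycle, whose intermediates Slc13a2 carries, had a median of -0.01 over 18 genes, with 0 higher and 3 lower without overlap, the latter a share near the 15.2% of all genes. The member with the smallest p, Idh2, the mitochondrial isocitrate dehydrogenase, read 8.32 and 8.52 against 7.73 and 7.99 (-0.56, SE 0.197).

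Transcripts of other cell types were checked beside these values. Of 15 tested thymocyte genes, 9 had both knockout arrays above both controls and 2 below (all genes 13.2% and 15.2%). By limma 0 were called, and 3 had an unadjusted p under 0.05, all higher (over all genes 1.06% higher and 1.87% lower). The median was 0.21, or 0.18 with genes at background set to their bounds, and the mean level was 6.83 and 6.80 on control and 7.07 and 6.94 on knockout arrays. Among members above background on all 4 arrays, Cd27 and Ikzf1 had the smallest p. Cd27 read 6.75 and 7.13 in controls and 7.47 and 7.39 in knockouts (0.49, SE 0.202). Dimmer Cd27 probes differed by -0.10 and 0.15. Ikzf1 read 8.83 and 8.81 against 9.27 and 9.18 (0.41, SE 0.184). Cd3e differed by 0.18, Cd3g by -0.03 and Cd8b1 by 0.21. Cd4 and Rag1 were at background in knockouts, and Themis, Cd247 and Dntt in controls. The thymocyte median thus had the sign of the p53 target median, and the part of these transcripts in that value was not tested. Among 12 myeloid and dendritic cell genes the median was -0.07 and the mean 0.01, with mean levels of 8.13 and 8.29 on control and 8.20 and 8.24 on knockout arrays. Tyrobp, a member of that list, read 5.55 and 5.72 against 5.41 and 5.58. The 13 tested cortical epithelial genes had a median of -0.01, and 18 epithelial identity genes had a median of -0.05.

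Whether the genotype acts differently in the 2 subsets was tested as the difference between the CD80high and the CD80low effect. By limma on all 8 arrays, 0 of 14722 genes were called (0%) and 484 had an unadjusted p under 0.05. Slc13a2 was higher by 6.46 in CD80high and by 5.23 in CD80low cells, a difference of 1.23 (SE 0.327, adjusted p = 1). The tuft kinase gene Dclk1 was at 0.43 in CD80high and -1.02 in CD80low cells (difference 1.45, SE 0.286, adjusted p = 1). In CD80high cells Dclk1 went against its list, as the tuft median was -0.34 there and -1.28 in CD80low cells. The medians in CD80high and CD80low cells were -0.16 and -0.73 for skeletal muscle and -0.30 and -0.50 for cornified keratinocyte genes. They were -0.37 and -0.28 for intestinal, -0.28 and -0.12 for liver and -0.24 and -0.19 for pancreas genes. These list medians were not tested between the subsets. The keratin Krt79 was at -0.14 and -1.36. Cacng4, R3hcc1l and the flippase gene Atp8b2, also among the 5 genes with the smallest p for this difference, were at background on both arrays of at least 1 group, so no difference is given for them. Cdkn1a was at 0.70 and -0.04, Ccng1 at 0.69 and 0.64, Cdkn1c at -0.89 and -0.87 and Cyp2g1 at -1.25 and -1.20. None of these pairs of single-gene values differed past the threshold. Across the 14722 genes the effects in the subsets correlated at Pearson's r = 0.175 and Spearman's rho = 0.0914, a description over genes that share arrays within each subset and are not independent.

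**Figure D5:**
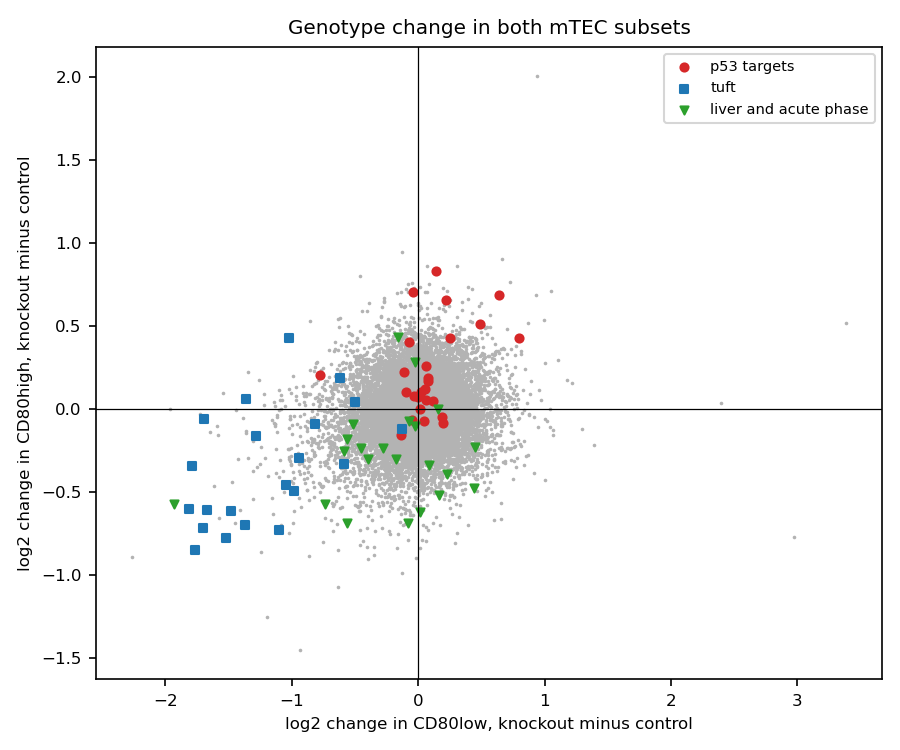
Difference in log2 intensity (knockout minus control) in CD80low cells (horizontal axis) against that in CD80high cells (vertical axis), 1 grey point per tested gene, with p53 targets, tuft markers and liver genes marked. Slc13a2, at 5.23 and 6.46, is left out. Tuft markers lie to the left, with Dclk1 at -1.02 and 0.43, and p53 targets spread mainly along the vertical axis, Cdkn1a at -0.04 and 0.70.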

How the data were processed

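Total RNA of sorted mTECs was amplified from 200 ng, labelled with biotin and hybridised to Illumina bead arrays, per the labels' protocols. The deposited values are linear intensities by probe and sample; the authors' scaling method, software and genome build are not given in the sources used here. A table before normalisation has 16 columns headed by slide position alone; the labels tie none of them to a sample, so it was not used and slides could not be tested as batches. Bead arrays give no read depth, and precision is set by the number of arrays and the signal over background.

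The normexp model (limma 3.58.1, R 4.3.3; parameters from each array's values, offset 16) removed background, and the values were quantile-normalised over all 8 arrays, which scales them a second time, and log2-transformed. Probes were kept whose deposited intensity exceeded the array's mode by 1.64 background SDs in both arrays of at least 1 group, and the brightest kept probe stood for a gene. Probes with 1 gene symbol in the platform table numbered 35667, with several 0 and with none 10422; symbols were updated in the RefSeq table of GRCm38.p6, through the Entrez identifier for 28519 probes and the accession for 2634. That table served for names, gene order and promoter windows only.

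Differences were tested with limma on the 4 CD80high arrays (2 residual and 8.29 prior degrees of freedom), on all 8, and as the difference between the subsets' effects. Two-sided p-values were adjusted over 14722 genes (Benjamini-Hochberg); a call is an adjusted p under 0.05. A fold against a group at background on both arrays is a lower bound. Genes were named from Hipk2, Slc13a2 with 2 neighbours on each side, Aire, Cd80, Ins2, Gad1, Fezf2, all called genes, the 12 higher and 12 lower genes with the smallest p and no overlap, the 5 largest differences each way, the 4 members of each list with the smallest p and the 5 genes that differed most by p between subsets, not all of which are described; further list members, such as Tyrobp, were named with their values known. The comparison and its 46 lists (742 genes, 603 tested) were chosen with earlier results of these data known. The code was tested on simulated data. Alternatives changed the background step, the normalisation, the filter, the prior, the probe rule, a replicate block and the arrays left out.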

Additional observations from a re-analysis of the deposited data

How the results depend on the processing

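Slc13a2 was called in each of the 15 alternatives of the 4-array comparison, at 5.85 to 6.50 on the log2 scale, and was the single gene called in 9 of them. With no filter 2 genes were called, Abcb11 being added (adjusted p = 0.0169). With the replicate number as a block 4 were called (Slc13a2, Abcb11, 1110014O20Rik and Cyp2g1, the last pair lower), and 1287 genes had an unadjusted p under 0.05, against 432 without it. Replicate differences of controls and knockouts correlated at r = 0.466 over genes in CD80high cells, yet the labels do not state that numbers pair the samples. The block changed no other call; with all 8 arrays it left 1. Leaving out 1 CD80high array gave 2 to 3 calls: Slc13a2 and Abcb11 each time, with 1110014O20Rik without control replicate 1 or knockout replicate 2. The lone array is then assumed to vary like the others. The 8-array count was 1 throughout. The count for the difference between subsets was 0, or, in alternatives chosen after seeing the data, 1 without knockout CD80low replicate 1 and 2 without replicate 2 (a range of 0 to 2). Why these counts moved was not tested.

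Signs turned only in differences that overlapped between genotypes, except where said. With the mean of all tested probes Fas was at 0.059 and Cd8b1, whose arrays had not overlapped, at -0.023, and with the deposited values Hipk3 was at -0.014. When single arrays were left out the difference ranged from -0.01 to 0.12 for Aire, -0.31 to 0.54 for Cd80, -0.12 to 0.61 for Hipk2, -0.17 to 0.05 for Hipk1, -0.042 to 0.06 for Hipk3, -0.26 to 0.36 for Foxn1, -0.14 to 0.24 for Unc119 and -0.12 to 0.076 for Slc13a3. It ranged from -0.26 to 0.094 for Mdm2, -0.09 to 0.29 for Bbc3, -0.71 to 0.40 for Pmaip1, -0.23 to 0.22 for Fas, -0.86 to 0.36 for Cdkn2a, -0.48 to 0.031 for Mki67, -0.055 to 0.49 for Top2a, -0.30 to 0.25 for Cd3g, -0.21 to 0.085 for H2-Aa and -0.14 to 0.002 for H2-Ab1. Of 690 list values under the alternatives, 97 moved by more than the spread between replicates. Low signal limits the genes at background on both arrays of a group, for which a bound or no difference is given.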

Other observations

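Several lists outside the groups above had members with an unadjusted p under 0.05 and none called by limma at the adjusted threshold. Of 11 tested nervous system and myelin genes, the myelin glycoprotein Mag read 8.76 and 8.52 in controls and 8.12 and 7.85 in knockouts (-0.66, SE 0.200), and the axonal adhesion molecule Cntn1 read 7.33 and 7.12 against 6.69 and 6.75 (-0.51, SE 0.190). Both had knockout arrays below both controls, and the list median was -0.11, with 4 lower and 1 higher without overlap (all genes 15.2% and 13.2%). Gp2, the receptor for bacteria on microfold cells, read 12.06 and 12.30 against 11.73 and 11.39 (-0.62, SE 0.204). The median of the 11 tested microfold genes was -0.04.

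Of 13 tested cortical epithelial genes, the thymus-specific protease Prss16 read 5.97 and 6.15 in controls and 6.49 and 6.62 in knockouts (0.49), and the list median was -0.01. Interferon-stimulated genes had a median of 0.06 over 16 tested, with 4 higher and 1 lower without overlap (all genes 13.2% and 15.2%). Isg15 read 9.20 and 9.54 against 9.72 and 9.82 (0.39, SE 0.199), and Irf7, the regulator of type I interferon, read 7.47 and 7.25 against 6.99 and 6.99 (-0.38, SE 0.189). The keratin Krt5 of immature mTECs read 9.14 and 9.05 against 9.35 and 9.71 (0.44, SE 0.200). The lists of immature mTEC, antigen processing, costimulatory ligand, Aire partner, oxidative phosphorylation, immediate-early, bile acid transport, solute carrier, ciliated, neuroendocrine, testis, secretory gland, B cell, erythroid, fibroblast and endothelial genes had medians from -0.18 to 0.11, with 0 genes called by limma.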
